A study of Homo sapiens with 2 samples.

Results

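Semaphorins, plexins and neuropilins were compared between 2 subcutaneous tumours of NCI-N87, an established human gastric carcinoma line with high HER2, grown in nude mice, which lack T cells. The T-DM1-refractory tumour came from a host given trastuzumab emtansine (T-DM1, a HER2 antibody carrying a microtubule poison) every 3 weeks for 18 weeks, and the untreated tumour from a host with no treatment. No engineered allele is named for line or host. The labels do not state the age of the hosts, how many animals stand behind each library, or how a tumour was judged refractory. Each group is 1 library, so no test across samples was possible, and every interval covers counting error within these libraries only. The members are the human genes whose symbol is that of a semaphorin of classes 3 to 7, a plexin of classes A to D or a neuropilin, which gave 31 of the 29972 genes in the table: 20 semaphorins, 9 plexins and 2 neuropilins.

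Semaphorins are secreted or membrane-bound guidance proteins that carry a sema domain. Plexins are their receptors, whose cytoplasmic part acts on small GTPases and through them on integrin adhesion and the cytoskeleton, and most secreted class 3 semaphorins need a neuropilin, which also binds VEGF, to reach a plexin. In epithelial tumours the family is known for effects on cell spreading, invasion and vessel growth, and B-type plexins can associate with the receptor kinases MET and HER2.

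The refractory library held 59902704 expected counts (reads estimated per gene) and the untreated library 75722117. CPM are counts set to a common library size (TMM scaling), and differences are log2 of refractory over untreated with 1 CPM added to both. A gene was described if its higher library had at least 1 CPM. The 6 markers of the gastric epithelial line were present in both tumours, EPCAM at 785 CPM in the refractory and 471 CPM in the untreated tumour, CDH1 at 817 and 589 CPM, KRT8 at 1827 and 3204 CPM, KRT18 at 922 and 1215 CPM, KRT19 at 1640 and 1659 CPM, and ERBB2 at 7975 and 7267 CPM. The table lists human genes, and in such bulk samples fewer cells of a type cannot be told apart from less RNA per cell.

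Members differed in both directions. Of the 31 members 25 were described, and of these 6 were at least 2-fold higher in the refractory tumour (NRP1, SEMA4G, SEMA7A, PLXNA2, SEMA3C and PLXND1), 5 at least 2-fold lower (SEMA5A, NRP2, SEMA3F, SEMA3A and SEMA6A) and 14 in between. Over all 14167 described genes 9.80% were higher and 11.0% lower by the same rule. The called members therefore made up 44% of those described, against 20.8% of all described genes in either direction, a description with no test. NRP1 reached 1 CPM only in the refractory library, and SEMA5A and SEMA6A only in the untreated one, so the shares among described members are no evidence about the family. The median difference of the 25 was -0.06, beside 0.03 over all described genes. At 4-fold 3 members were higher and 3 lower, against 2.54% and 3.56% of all described genes (6.10% in either direction). At 1.5-fold 10 were higher and 5 lower, against 19.4% and 18.9% (38.3%). By the authors' deposited table, p was under 0.05 for 10 of the 31 members and 7.20% of all genes, with 3 members higher (2.37% of all genes) and 7 lower (4.83%). That p sets 1 library against 1. The base of all genes includes those with no counts: 20165 had counts in either library, as had all 31 members. Among the 7 lower, PLXNA4, SEMA3D, SEMA5B and SEMA6B were not described, with at most 1 refractory count each.

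**Figure D1:**
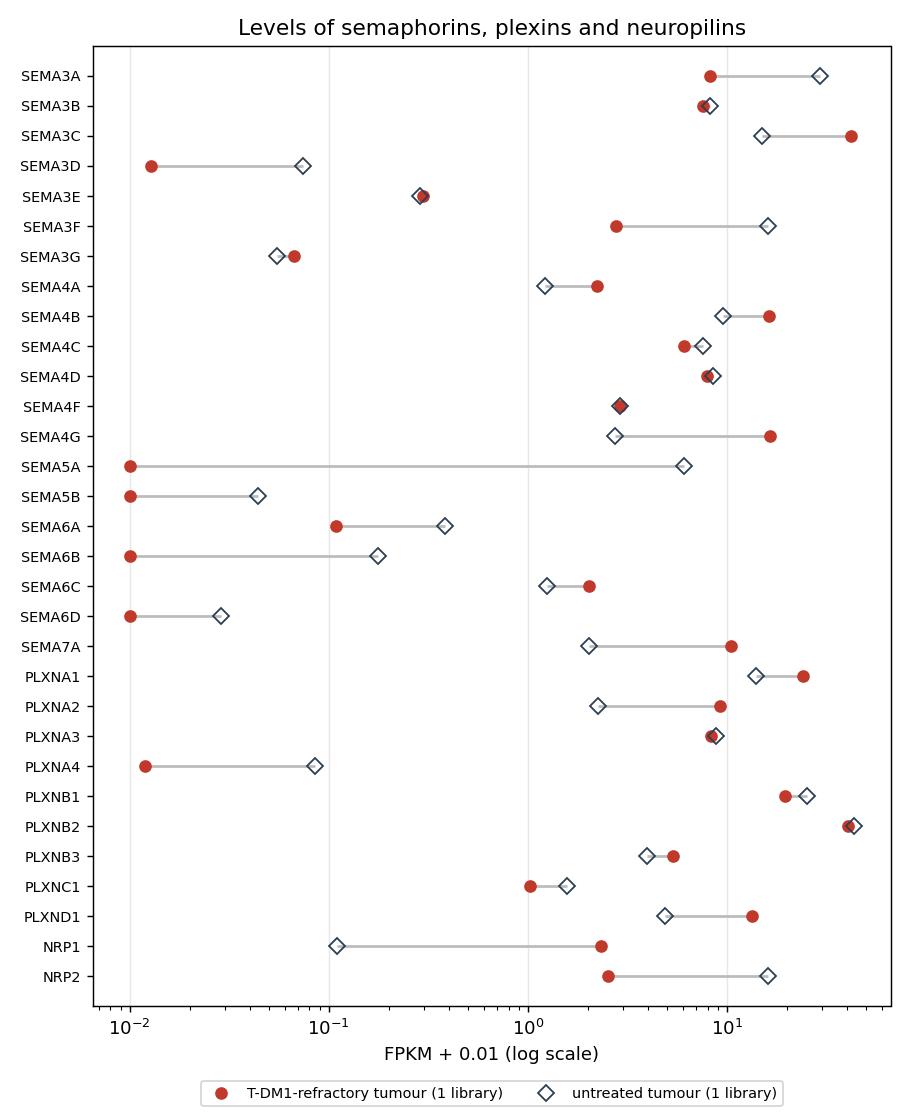
Level of each of the 31 genes in FPKM (the authors' deposited values, fragments per length of transcript and depth of library) with 0.01 added so that 0 can be drawn on the log axis. Filled circles are the T-DM1-refractory tumour and open diamonds the untreated tumour, 1 library each. SEMA5A is drawn at the left edge in the refractory tumour (0 FPKM) and at 6.10 FPKM in the untreated one, while PLXNB2 is near the right edge in both.

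The sequences below are the 250 bases before the start of transcription of 4 called members, from RefSeq on GRCh38.p14, 5′ to 3′ on the strand of the gene. SEMA5A is shown because its neighbour starts inside the window, and capitals mark the 124 bases between the start of SEMA5A and that of SNHG18, a long non-coding RNA gene on the opposite strand. The window spans chr5:9546076-9546325 on the minus strand.
SEMA5A: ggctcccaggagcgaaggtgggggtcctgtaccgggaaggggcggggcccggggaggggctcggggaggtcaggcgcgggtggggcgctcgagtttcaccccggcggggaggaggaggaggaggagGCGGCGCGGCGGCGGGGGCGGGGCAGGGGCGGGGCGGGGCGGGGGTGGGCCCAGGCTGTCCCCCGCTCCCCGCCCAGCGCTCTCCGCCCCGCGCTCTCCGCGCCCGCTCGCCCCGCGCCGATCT
NRP2 (chr2:205682251-205682500, plus strand) is shown as the other much lower member with a single listed start, and SEMA7A (chr15:74433959-74434208, minus strand) and SEMA4G (chr10:100969254-100969503, plus strand) as higher members. In these 3 the capitals mark CpG dinucleotides.
NRP2: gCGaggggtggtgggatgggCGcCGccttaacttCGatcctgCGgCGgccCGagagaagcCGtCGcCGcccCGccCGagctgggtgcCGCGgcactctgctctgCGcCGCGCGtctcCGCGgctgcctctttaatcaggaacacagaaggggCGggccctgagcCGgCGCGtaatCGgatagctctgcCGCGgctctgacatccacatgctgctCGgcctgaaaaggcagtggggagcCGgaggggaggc
SEMA7A: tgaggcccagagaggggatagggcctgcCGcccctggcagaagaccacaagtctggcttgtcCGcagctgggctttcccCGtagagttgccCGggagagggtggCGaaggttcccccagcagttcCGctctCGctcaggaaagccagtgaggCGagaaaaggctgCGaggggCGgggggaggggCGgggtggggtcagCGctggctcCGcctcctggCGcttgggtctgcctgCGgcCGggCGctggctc
SEMA4G: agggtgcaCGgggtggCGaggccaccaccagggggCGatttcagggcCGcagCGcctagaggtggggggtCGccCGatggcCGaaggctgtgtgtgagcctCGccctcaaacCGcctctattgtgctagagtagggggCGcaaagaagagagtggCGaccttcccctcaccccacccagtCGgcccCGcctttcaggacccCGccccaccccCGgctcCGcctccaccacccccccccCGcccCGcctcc
The windows hold 33 CpGs in SEMA5A, 29 in NRP2, 17 in SEMA7A and 19 in SEMA4G, and the median over 10085 described genes with an entry was 21. Of the 31 members 27 had an entry, with a median of 13 and a range of 2 to 46. These include members that were not described, and over all 27305 RefSeq promoters the median was 11. SEMA7A and SEMA4G have 2 listed starts each, and the window of the one listed first was taken for every gene. The letters ACGTG, only a form of the core that hypoxia-inducible factors bind, were searched on both strands. This search also counts the E-box CACGTG. They occur in 5 of the 27 windows (18.5%), beside 18.7% for all RefSeq promoters and 23.2% for described genes. Of the 8 windows of called members 0 held them.

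Among the secreted class 3 semaphorins, the leading ligand differed between the tumours. SEMA3C, a ligand of NRP1, NRP2 and plexin-D1 (chromosome 7, 80744894 to 80828674, coding span), stood at 206 CPM in the refractory tumour and 72.6 CPM in the untreated tumour, a ratio of 2.84 (95% interval 2.75 to 2.93). SEMA3A, the classical collapsin, which signals through NRP1 with A-type plexins (chromosome 7, 83961371 to 84194586), stood at 44.0 CPM in the refractory and 154 CPM in the untreated tumour, 3.51-fold lower (3.37 to 3.67). On the length-corrected scale SEMA3C accounted for 69.0% of the class 3 FPKM in the refractory tumour and 21.8% in the untreated one, and SEMA3A for 13.5% and 42.6%. The level of SEMA3C over that of SEMA3A was 5.10 in the refractory and 0.511 in the untreated tumour, so SEMA3C ranked first of the 20 semaphorins in the refractory tumour and SEMA3A in the untreated one. The summed class 3 level was close, at 60.9 FPKM in the refractory and 69.0 FPKM in the untreated tumour.

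SEMA3F, which binds NRP2 by preference and is known as an inhibitor of vessel growth (chromosome 3, 50159623 to 50185420), stood at 8.70 CPM in the refractory and 43.6 CPM in the untreated tumour, 5.01-fold lower (4.57 to 5.51). Its neighbour SEMA3B, a related ligand whose position in the table is 110 kb away, stood at 20.1 and 21.4 CPM, a ratio of 0.937 with an interval that includes 1 (0.869 to 1.01). SEMA3E, the ligand that binds plexin-D1 without a neuropilin, was near the limit of description at 1.55 CPM in the refractory and 1.75 CPM in the untreated tumour, a ratio whose interval includes 1 (0.671 to 1.16). SEMA3D had 1 count in the refractory library and 29 in the untreated one, 22.5-fold lower with a wide interval (3.73 to 919), and SEMA3G had 15 counts in each.

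These genes are neighbours with unlike values. The lower ends of the coding spans of SEMA3C and SEMA3D lie 4.25 Mb apart on chromosome 7, with SEMA3E and SEMA3A between them. There SEMA3C was higher, SEMA3A lower and SEMA3E in between. CACNA2D1, also described in this stretch, had 0 refractory and 129 untreated counts and was lower. The 14 described genes nearest to SEMA3A, out to 5.94 Mb, had a median difference of -0.01. Those nearest to SEMA3C, out to 4.12 Mb, had a median of -0.19. Both sets hold described genes of this stretch and genes outside it. Around SEMA3F the median was 0.24.

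The coreceptors differed in opposite directions. NRP1 (chromosome 10, 33180076 to 33334382) stood at 12.7 CPM in the refractory tumour from 751 counts and 0.549 CPM in the untreated tumour from 42 counts, a ratio of 23.0 (16.9 to 32.2). NRP2 (chromosome 2, 205683291 to 205795058) stood at 14.8 CPM in the refractory and 90.8 CPM in the untreated tumour, 6.15-fold lower (5.73 to 6.60). Per length, NRP2 exceeded NRP1 by a factor of 1.09 in the refractory tumour (2.53 and 2.31 FPKM) and of 159.7 in the untreated one (16.1 and 0.101 FPKM). The sum of both was 4.84 FPKM in the refractory and 16.2 FPKM in the untreated tumour. The neighbours of either gene had medians near 0 (-0.05 for NRP1 and -0.08 for NRP2).

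NRP1, like PLXND1, is abundant in vessel endothelium, and markers of other cell types are given beside them. None of the 9 fixed endothelial genes was higher in the refractory tumour. They summed to 1.15 CPM there and 6.88 CPM in the untreated tumour. CDH5 was at 0 counts in both, PECAM1 at 0.0843 CPM in the refractory and 0.131 CPM in the untreated tumour, and ROBO4 was lower (0.0674 and 2.29 CPM). Fibroblast markers summed to 2.12 and 3.02 CPM, with 4 of 8 at 0 in both, 0 called higher and 0 lower. Leukocyte markers summed to 31.9 CPM in the refractory and 4.63 CPM in the untreated tumour, most of it CD68, a lysosomal protein also made outside macrophages (29.2 and 3.62 CPM). CD14 stood at 1.43 CPM in the refractory and 0.445 CPM in the untreated tumour and LAPTM5 at 0.978 and 0.497 CPM, while PTPRC, the pan-leukocyte marker, stood at 0.287 and 0.0654 CPM and 3 of 8 were at 0 in both. These genes are human and do not measure the cells of the mouse host, and the part of other cells in the values of NRP1 was not tested.

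**Figure D2:**
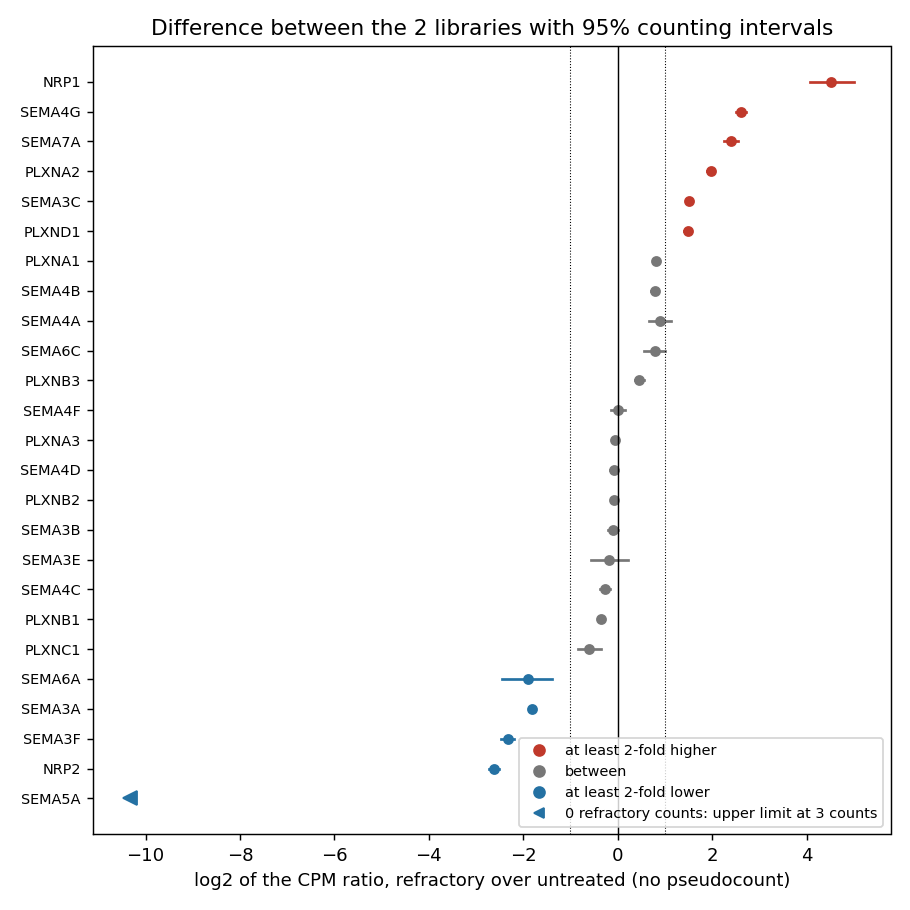
Log2 of the CPM ratio, refractory over untreated with no pseudocount, for the 25 described members, with bars for the exact 95% counting interval. Dotted lines mark 2-fold, and the triangle for SEMA5A is its upper limit at 3 refractory counts. The 6 higher and 5 lower members lie outside the lines, and the other 14 points lie between them.

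In class 4, membrane-bound ligands mainly of B-type plexins and plexin-D1, 3 of 6 members had ratios of 1.73 to 6.08 and the others lay between 0.830 and 1.01. SEMA4G was the member that passed 2-fold, at 66.9 CPM in the refractory and 11.0 CPM in the untreated tumour, a ratio of 6.08 (5.65 to 6.56). SEMA4G overlaps MRPL43, a mitochondrial ribosomal protein gene, its counts were partly fractional, and the table gives it a single position (chromosome 10, 100985616) with no coding span. MRPL43 itself stood at 29.7 CPM in the refractory and 18.5 CPM in the untreated tumour, a ratio of 1.61, so the overlapping gene differed less. How reads were divided between them was not tested.

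SEMA4B stood at 56.9 CPM in the refractory and 33.0 CPM in the untreated tumour (ratio 1.73, 1.64 to 1.82) and SEMA4A at 6.66 and 3.57 CPM (1.86, 1.59 to 2.18), both under the 2-fold mark on the scale used. SEMA4D, the main ligand of plexin-B1, was level at 33.0 CPM in the refractory and 35.1 CPM in the untreated tumour (0.941, 0.888 to 0.998). SEMA4C, a ligand of plexin-B2, stood at 18.7 and 22.5 CPM, and SEMA4F at 12.4 and 12.3 CPM. The class summed to 51.6 FPKM in the refractory and 32.4 FPKM in the untreated tumour, and SEMA4G accounted for 31.7% and 8.42% of it.

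SEMA7A, the class linked to the membrane by a lipid anchor and known to bind plexin-C1 and beta-1 integrins (chromosome 15, 74410624 to 74427186), stood at 31.5 CPM in the refractory and 5.98 CPM in the untreated tumour, a ratio of 5.27 (4.76 to 5.85). Its receptor PLXNC1 stood at 3.67 CPM in the refractory and 5.57 CPM in the untreated tumour. Of the integrin chains, ITGB1 stood at 1269 and 1127 CPM, while ITGA1, which pairs with it as a collagen receptor, was 39.3-fold lower (3.67 and 144 CPM, 34.4 to 45.2).

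SEMA5A was not detected in the refractory library. This membrane semaphorin with thrombospondin repeats, a ligand of plexin-B3 (chromosome 5, 9042897 to 9379946), had 0 counts in the refractory library and 5000 in the untreated one, which is 65.4 CPM. Taking 3 counts as the upper limit of a count of 0 (0.0506 CPM), it was 1293-fold lower. The exact 95% limit is less strict, at least 1051-fold lower. At a level chosen after its value was seen, of 3749 genes with 5000 or more untreated counts, 6 (0.160%) had 0 in the refractory library, and by the log2 difference SEMA5A was number 17 from the lowest of all described genes.

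A neighbour was also at 0. SNHG18, which starts 125 bases from SEMA5A on the other strand, had 0 counts in the refractory library and 301 in the untreated one (3.94 CPM). It was 77.9-fold lower at 3 counts (exact 95% limit 62.9-fold). Within 3 Mb of the SEMA5A position, the table holds 15 other genes with at least 100 counts over the libraries, and SNHG18 was the only one of them at 0. On the side of lower coordinates MTRR stood at 71.6 CPM in the refractory and 61.3 CPM in the untreated tumour and MIR4458HG at 4.25 and 5.26 CPM. On the other side FAM173B stood at 18.5 and 24.7 CPM and CCT5 at 424 and 311 CPM. Not all neighbours were level: ROPN1L, 1.40 Mb away, was higher (160 refractory and 7 untreated counts). ANKRD33B, 1.52 Mb away, had 20 and 81 counts and was not called. The median difference of the 15 was 0.09. Why both genes had no counts in the refractory library was not tested.

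**Figure D3:**
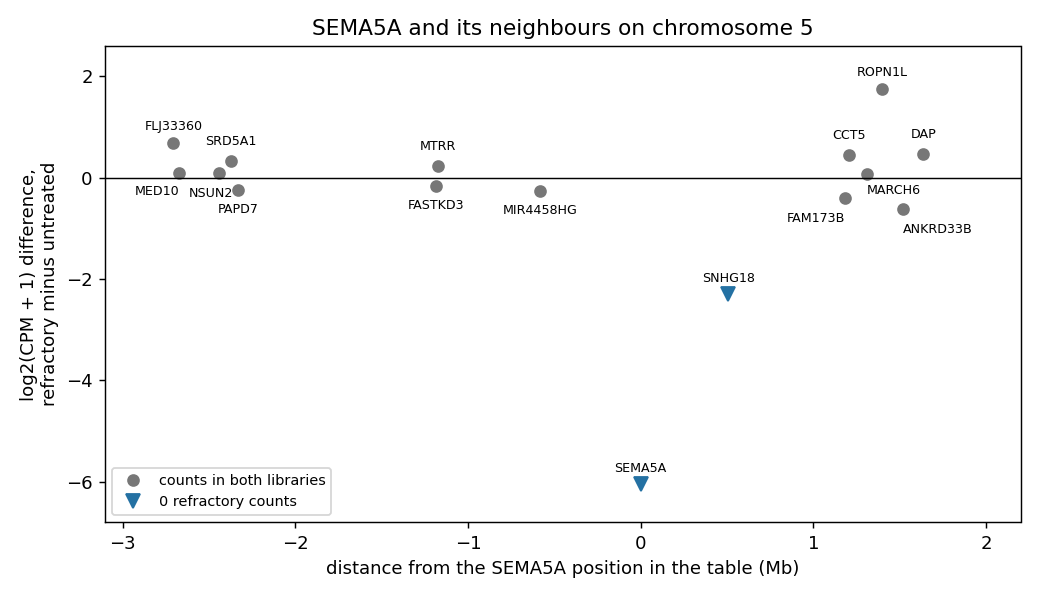
Difference in log2(CPM + 1), refractory minus untreated, against distance from the position of SEMA5A in the table, for the genes with at least 100 counts within 3 Mb. Triangles mark 0 refractory counts. SEMA5A (-6.05) and SNHG18 (-2.30) lie far below the other 14 genes, which lie between -0.62 and 1.76.

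The remaining membrane semaphorins were scarce. SEMA6A, a ligand of plexins A2 and A4 (chromosome 5, 116446613 to 116504944), had 37.78 counts in the refractory and 183.44 in the untreated library, 3.74-fold lower (2.62 to 5.45), but with 1 CPM added its difference of -1.05 was just past the mark. SEMA6C stood at 6.62 CPM in the refractory and 3.85 CPM in the untreated tumour (1.72, 1.48 to 2.01). The remaining 3 stayed below 1 CPM throughout, with no refractory counts. SEMA6B had 46 counts in the untreated library and was 11.9-fold lower at 3 counts (exact 95% limit 9.29-fold). SEMA5B had 11 (2.85-fold, limit 1.95-fold) and SEMA6D had 8 (2.07-fold, limit 1.32-fold). In the authors' deposited table SEMA6B has p = 0.000442 on these few reads.

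Of 8 described plexins, 2 were higher, 0 lower and 6 in between. The called share of 25% is near the 20.8% of all described genes, and the 9 together summed to 121 FPKM in the refractory and 104 FPKM in the untreated tumour. PLXNB2, the most abundant member per length in the untreated tumour and the leading plexin in both, stood at 246 CPM in the refractory and 261 CPM in the untreated tumour (0.941, 0.921 to 0.961). PLXNB1, the receptor of SEMA4D, stood at 103 and 133 CPM (0.779, 0.755 to 0.804). PLXNB3, the receptor of SEMA5A, stood at 31.8 CPM in the refractory and 23.1 CPM in the untreated tumour (1.38, 1.29 to 1.47).

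The A-type plexins, which pair with neuropilins for class 3 ligands, were more uneven. PLXNA2, also a receptor of class 6 semaphorins (chromosome 1, 208027243 to 208217922), stood at 92.3 CPM in the refractory and 23.6 CPM in the untreated tumour, a ratio of 3.91 (3.71 to 4.12). PLXNA1 stood at 213 and 121 CPM (1.76, 1.72 to 1.81) and PLXNA3 at 50.9 and 53.0 CPM (0.959, 0.915 to 1.01). PLXNA4 was not described, with 1 count in the refractory and 55 in the untreated library, 42.7-fold lower (7.35 to 1716). The class sum was 41.6 FPKM in the refractory and 25.02 FPKM in the untreated tumour.

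PLXND1, the receptor of SEMA3E and SEMA3C (chromosome 3, 129556312 to 129606639), stood at 89.9 CPM in the refractory and 32.2 CPM in the untreated tumour, a ratio of 2.79 (2.66 to 2.93). Its neighbourhood was also higher: the 14 nearest described genes had a median difference of 0.69, 4 of them past 2-fold. With that median subtracted, the difference of PLXND1 was 0.76 in place of 1.45 and no longer past 2-fold. PLXNA1 lies 2.57 Mb away, in a stretch with a median of 0.55. For PLXNA2 the neighbours had a median of 0.23 and the difference stayed past 2-fold without it (1.70).

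**Figure D4:**
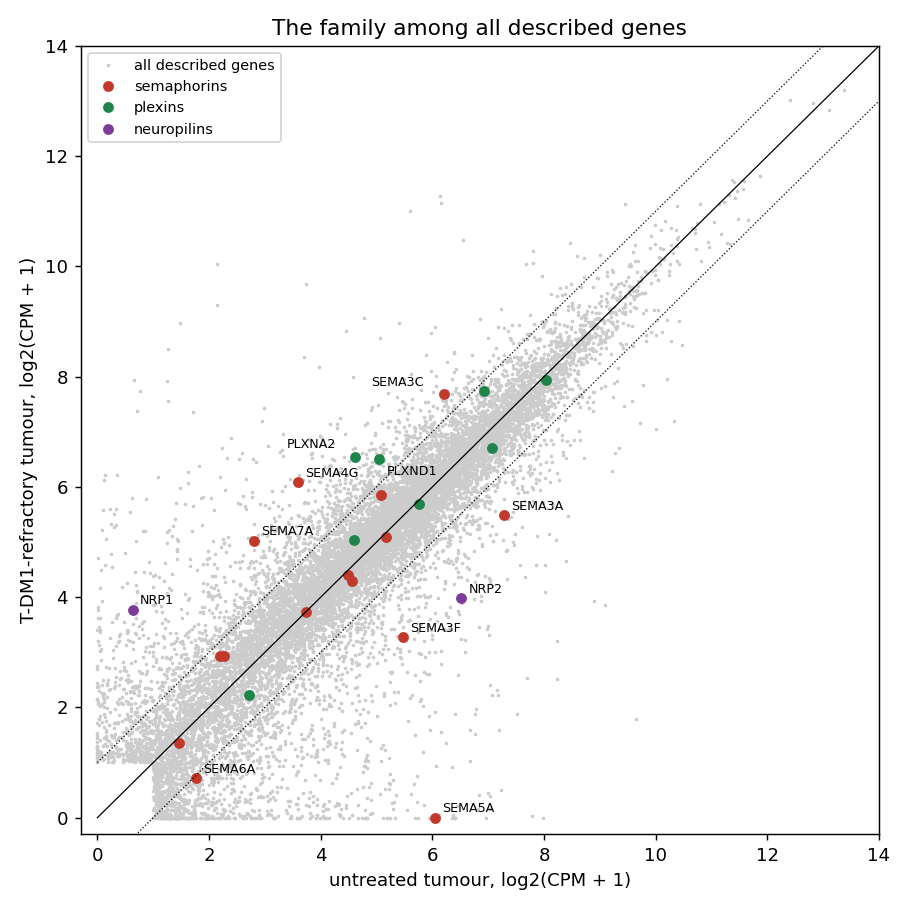
Each of the 14167 described genes as a grey dot, with log2(CPM + 1) in the untreated tumour on the horizontal and in the T-DM1-refractory tumour on the vertical axis. The solid line marks equal values and the dotted lines 2-fold. Of the coloured members, 6 lie above the upper and 5 below the lower dotted line, with SEMA5A on the horizontal axis.

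Other genes of the pathway were read from 6 lists of 107 genes, each gene counted once, of which 73 were described, 9 higher and 13 lower (30.1% called, against 20.8% of all described genes, of which 9.80% were higher and 11.0% lower). VEGF ligands, which use neuropilins as coreceptors, were mostly scarce in both tumours. The exception was VEGFA, at 347 CPM in the refractory and 82.9 CPM in the untreated tumour (4.19, 4.07 to 4.31). VEGFB stood at 14.9 and 7.09 CPM (2.10, 1.89 to 2.34) and was not called, as its difference with 1 CPM added was 0.975. Of the 2 described ligands 1 was higher and 0 lower, with a median of 1.51. PGF (53 refractory and 5 untreated counts) and VEGFD (25 and 0) were not described, and VEGFC had 0 counts in both.

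Of 12 described coreceptors and partners 1 was higher and 3 lower (median -0.09). NRCAM, a neuronal adhesion partner of NRP2, was higher (3.78 CPM in the refractory and 0.575 CPM in the untreated tumour), and ITGA1 and GIPC1, a PDZ adaptor that binds neuropilin-1 (32.0 and 78.5 CPM), were lower. ROBO1, a receptor of Slits, had 0 counts in the refractory library and 115 in the untreated one. It was 29.7-fold lower at 3 counts (exact 95% limit 23.8-fold). MET, a partner of plexin-B1, stood at 308 CPM in the refractory and 160.0 CPM in the untreated tumour and was not called.

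GTPases and their regulators split 3 higher and 3 lower of 21 (median 0.04). RRAS2, an R-Ras relative of the kind that plexins inactivate, stood at 8.28 CPM in the refractory and 0.497 CPM in the untreated tumour (16.7, 11.96 to 23.8), and RND1, a small GTPase that binds plexins, at 7.35 and 0.562 CPM (13.1, 9.54 to 18.3). FARP1, an exchange factor that binds A-type plexins, stood at 92.1 and 40.9 CPM. MRAS was 67.1-fold lower (0.539 and 36.2 CPM, 47.5 to 98.4), TIAM1, an exchange factor of RAC1, 139.6-fold lower (0.118 and 16.5 CPM, 67.5 to 348), and IQSEC1, an exchange factor of ARF6, 2.42-fold lower. RAC1 and RHOA, at 490 and 504 CPM in the refractory and 327 and 252 CPM in the untreated tumour, were under 2-fold on the scale used.

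Cytoskeletal effectors held 2 higher and 4 lower of 24 (median 0.07). The myosin light chain gene MYL9 stood at 49.0 CPM in the refractory and 8.42 CPM in the untreated tumour and MICAL3, of the oxidases that take actin apart, at 140.0 and 62.3 CPM. DPYSL3, a collapsin response mediator, was 10.8-fold lower (2.28 and 24.5 CPM), and FYN, a kinase bound to A-type plexins, stood at 2.73 and 8.999 CPM. CDK5R1, the activator of CDK5, stood at 6.84 and 15.2 CPM. Among 7 described proteases that cut semaphorins 2 were higher and 1 lower (median -0.13): the proprotein convertases PCSK5 (30.5 and 3.81 CPM) and PCSK6 (33.0 and 9.95 CPM) were higher, ADAM10 lower (398 and 1237 CPM), and FURIN stood at 60.1 and 98.4 CPM.

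Of 23 Slit, netrin and RGM genes and receptors 8 were described, with 0 higher and 3 lower (median -0.86), namely ROBO1, ROBO4 and NTN4, a netrin of basement membranes (37.8 CPM in the refractory and 77.4 CPM in the untreated tumour). The netrin and RGM receptor NEO1 (59.2 CPM in the refractory and 114.6 CPM in the untreated tumour) and the netrin receptor UNC5B (27.2 and 43.0 CPM) were not called. Of the 8 neuron and Schwann cell markers 3 were described and 2 of these were lower, beside 11.0% of all described genes. The 2 were NCAM1 (0.0674 CPM in the refractory and 12.9 CPM in the untreated tumour) and MAP2 (53.0 and 199.9 CPM). The other described marker, TUBB3, was level at 15.3 and 15.6 CPM. The list summed to 68.5 CPM in the refractory and 229 CPM in the untreated tumour, while S100B was at 0 in both. The part of such cells in the values of the members was not tested.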

How the data were processed

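Polyadenylated RNA was sequenced (TruSeq mRNA libraries, per the labels' protocols) from 1 T-DM1-refractory and 1 untreated NCI-N87 tumour, grouped by the treatment label. The authors deposited expected counts per gene and FPKM, with a log2 fold change and a p-value per gene. Tools named, per the submitters' processing notes, are RSEM 1.2.28, edgeR 3.26.8, bcl2fastq 2.20 and STAR 2.7.0e, with the builds GRCm38 and GRCh38. Their roles, the handling of mouse reads and of strand, and the annotation are not given in these sources. The authors' deposited log2 fold change is refractory over untreated: its largest gap to the TMM-scaled log2 ratio was 0.0194 among 13005 genes with over 50 counts on each side.

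Expected counts, exactly whole in 93.2% of refractory and 92.8% of untreated values, were rounded and scaled by TMM (edgeR 4.0.16, R 4.3.3; factors 0.990 for the refractory and 1.01 for the untreated library). A call is a 2-fold difference in log2(CPM + 1) where the higher library reached 1 CPM, and understates the change of low genes. Ratios carry 95% Clopper-Pearson limits on the split of the summed count (scipy 1.17.1), and a count of 0 was set to 3 counts. No molecular identifiers mark the reads, which may be copies of each other, so these cover counting error only.

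The named genes are all 31 members, up to 3 called members of each pathway list in each direction by size of difference (the most abundant where none passed), ERBB2 and the line's markers; others were chosen after their values were seen, including SNHG18 and its neighbours. The members and lists were chosen with earlier results of these data known. By an older name, VEGFD was matched as FIGF. Coordinates are coding spans in the deposited table, counted from 1; of 31 spans 30 lie inside the RefSeq gene on GRCh38.p14. Besides SEMA4G, PLXNA3, PLXNC1 and SEMA4D overlap another named coding gene. Alternatives were 3 other scalings, pseudocounts of 0.1 and 5 CPM, no filter, a filter of 10 CPM, FPKM, and thresholds of 1.5-fold and 4-fold. Further ones subtracted the median of 14 neighbours, or the median within 10 bins of transcript length, taken as counts over FPKM.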

Additional observations from a re-analysis of the deposited data

How the results depend on the processing

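No paired analysis was possible because each group is 1 library. The 6 higher and 5 lower members kept their calls under total count, median-of-ratios and top-50-removed scaling, a pseudocount of 0.1 CPM and no filter, and no called member changed sign under any alternative run. SEMA6A was no longer called with 5 CPM added, at 10 CPM or more, on FPKM or with the length trend removed. PLXND1 was no longer called with the neighbour median subtracted. PLXNA1 was called higher with the length trend removed, and SEMA6C with the neighbour median subtracted. At 1.5-fold 10 members were higher, with PLXNA1, SEMA4A, SEMA4B and SEMA6C added, and at 4-fold 3 were higher and 3 lower. Of the pathway genes 18 were higher and 22 lower at 1.5-fold, 5 and 4 at 4-fold, and 7 lower with 5 CPM added. Over all settings the median difference ran from 0.90 to 1.56 for VEGF ligands, -1.28 to -0.34 for Slits, netrins and RGMs, -0.49 to -0.01 for coreceptors and -0.15 to -0.0025 for proteases. It changed sign for GTPases (-0.07 to 0.09) and cytoskeletal effectors (-0.25 to 0.37). With 1 library a group, no alternative measures the spread between tumours.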

Other observations

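For SEMA3F and SEMA3E the deposited scales differed. Counts over FPKM give the transcript length that the FPKM assumed, and for SEMA3F this length was 1.15 times as long in the refractory as in the untreated library, after division by the median of all genes. Over 12992 described genes with at least 50 counts in both libraries the central 95% ran from 0.918 to 1.07, and 0.754% were at or above SEMA3F. The level of SEMA3F on the FPKM scale was 2.75 in the refractory and 16.0 in the untreated tumour, lower on either scale. For SEMA3E the same length ratio was 0.847, and its level was 0.287 FPKM in the refractory and 0.279 FPKM in the untreated tumour, against 1.55 and 1.75 CPM, so the order of the tumours differed between the scales. Which transcripts were made was not tested.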
